A study of Mus musculus with 4 samples.

Results

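Cytosolic ribosomal proteins are the protein components of the ribosomes that translate nuclear-encoded mRNAs, and their transcripts were followed here through RNAs recovered with a FLAG-tagged mutant of Dis3l2 from mouse embryonic stem cells. Members were the transcripts of the mRNA table whose symbol starts with Rps or Rpl and a digit, together with Rplp0, Rplp1, Rplp2 and Rpsa, without the Rps6k kinases and without named pseudogenes. This gave 85 of 16470 rows, with 1 transcript per symbol. They comprised 31 genes of the small subunit, 46 genes of the large subunit including the 3 stalk genes, and 8 rows that are paralogs or only share the name. Among the last group, Rps19bp1 encodes a Sirt1-binding protein and no ribosomal subunit, and the current RefSeq record of Rps4y2 is a transcribed pseudogene, Rps4l.

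Each of the 4 groups held 1 library. The groups were anti-FLAG immunoprecipitate (IP) from cells transfected with FLAG-mutant Dis3l2 (mutant IP), anti-FLAG IP from mock-transfected cells (mock IP), input RNA of the mutant-transfected cells (mutant input) and input RNA of the mock-transfected cells (mock input). All came from C57BL/6 embryonic stem cells at passages 25 to 30, cultured feeder-free on gelatin with LIF and serum, and the labels name no change to the cells' own Dis3l2 gene. Input RNA had passed a RiboMinus step against ribosomal RNA, while no such step was described for IP RNA, and the labels do not say which mutation the protein carried. Nothing in the labels described further cultures, so no spread between replicates could be measured, no test was possible, and every 95% interval below covers the counting of reads alone. PCR copies of one molecule are counted as separate reads, which makes these intervals too narrow.

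Dis3l2 is an exoribonuclease that degrades RNAs from their 3′ end and prefers those with added uridines. A mutant that binds but does not release or degrade its RNAs can be used to recover them. Ribosomal protein mRNAs are short, abundant in growing cells and translated together: nearly all begin with a 5′ terminal oligopyrimidine (TOP) tract, through which the mTOR pathway controls their translation. Many of their introns carry small nucleolar RNAs (snoRNAs), which guide the chemical modification of ribosomal RNA, and the mouse genome holds many processed pseudogene copies of these genes.

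Values are given as the deposited normalised read counts, which were whole reads divided by one factor per library (2.7 for the mutant IP, 2.5 for the mock IP, 1.8 for the mutant input and 2.5 for the mock input). The mRNA table held 2275647 reads in the mutant IP, 1860030 in the mock IP, 307324 in the mutant input and 291175 in the mock input, so the inputs were far shallower than the IPs. The gene Lars2 alone took 52.0%, 58.6%, 33.3% and 34.8% of these reads. For Dis3l2, 127 reads were counted in the mutant IP, 21 in the mock IP, 7 in the mutant input and 3 in the mock input; reads of the construct and of the endogenous gene cannot be told apart. Embryonic stem cell markers were present, with 12 of 12 listed genes detected in both IPs and Pou5f1 at 122 in the mutant IP, 104 in the mock IP, 26.7 in the mutant input and 24.8 in the mock input. The summed reads of the 12 markers were 3771, 2491, 140 and 176 in the same order. Short lists for fibroblast, endoderm, mesoderm, neural and trophectoderm cells summed to 14 to 99 reads each in the mutant IP, 9 to 85 in the mock IP, 2 to 19 in the mutant input and 2 to 34 in the mock input, and Cdx2 was at 0 in all 4 libraries. The fibroblast list differed most between the IPs, with 99 reads in the mutant IP, against 27 in the mock IP, of which Col1a1 gave 73 and 23; its part in the results below was not tested.

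Ribosomal protein transcripts were detected in all 4 libraries and held a similar, small share of each. Their summed normalised count was 5725 in the mutant IP, 4250 in the mock IP, 1052 in the mutant input and 860.4 in the mock input. As a share of all reads of the mRNA table they held 0.679% in the mutant IP (exact binomial interval 0.669 to 0.690), 0.571% in the mock IP (0.560 to 0.582), 0.616% in the mutant input (0.589 to 0.645) and 0.739% in the mock input (0.708 to 0.771). The order of the shares depended on what they were divided by. Among reads of coding transcripts other than Lars2, the share was 1.59% in the mutant IP, 1.53% in the mock IP, 1.59% in the mutant input and 1.90% in the mock input, so that the 2 mutant libraries were alike and the mock input was the highest. With Lars2 left out and noncoding rows kept, the shares were 1.41%, 1.38%, 0.924% and 1.13%, and the IPs then stood above the inputs.

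The median member had a normalised count of 53.3 in the mutant IP, 36.4 in the mock IP, 7.22 in the mutant input and 7.20 in the mock input. Single members spanned 0 to 336, 2 to 228, 0 to 52.2 and 0 to 45.2 in the same libraries. These counts are not divided by transcript length, so levels of different genes are not ranked. Depth set a limit in the inputs, where 30 members of the mutant input and 26 of the mock input had under 10 reads, against 5 in the mutant IP, against 4 in the mock IP. Members at 0 reads numbered 2 in the mutant IP, 0 in the mock IP, 8 in the mutant input and 5 in the mock input. A count of 0 allows up to 3 reads, which is a normalised count of 1.11 in the mutant IP, 1.20 in the mock IP, 1.67 in the mutant input and 1.20 in the mock input. No member was at 0 in all 4 libraries.

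**Figure D1:**
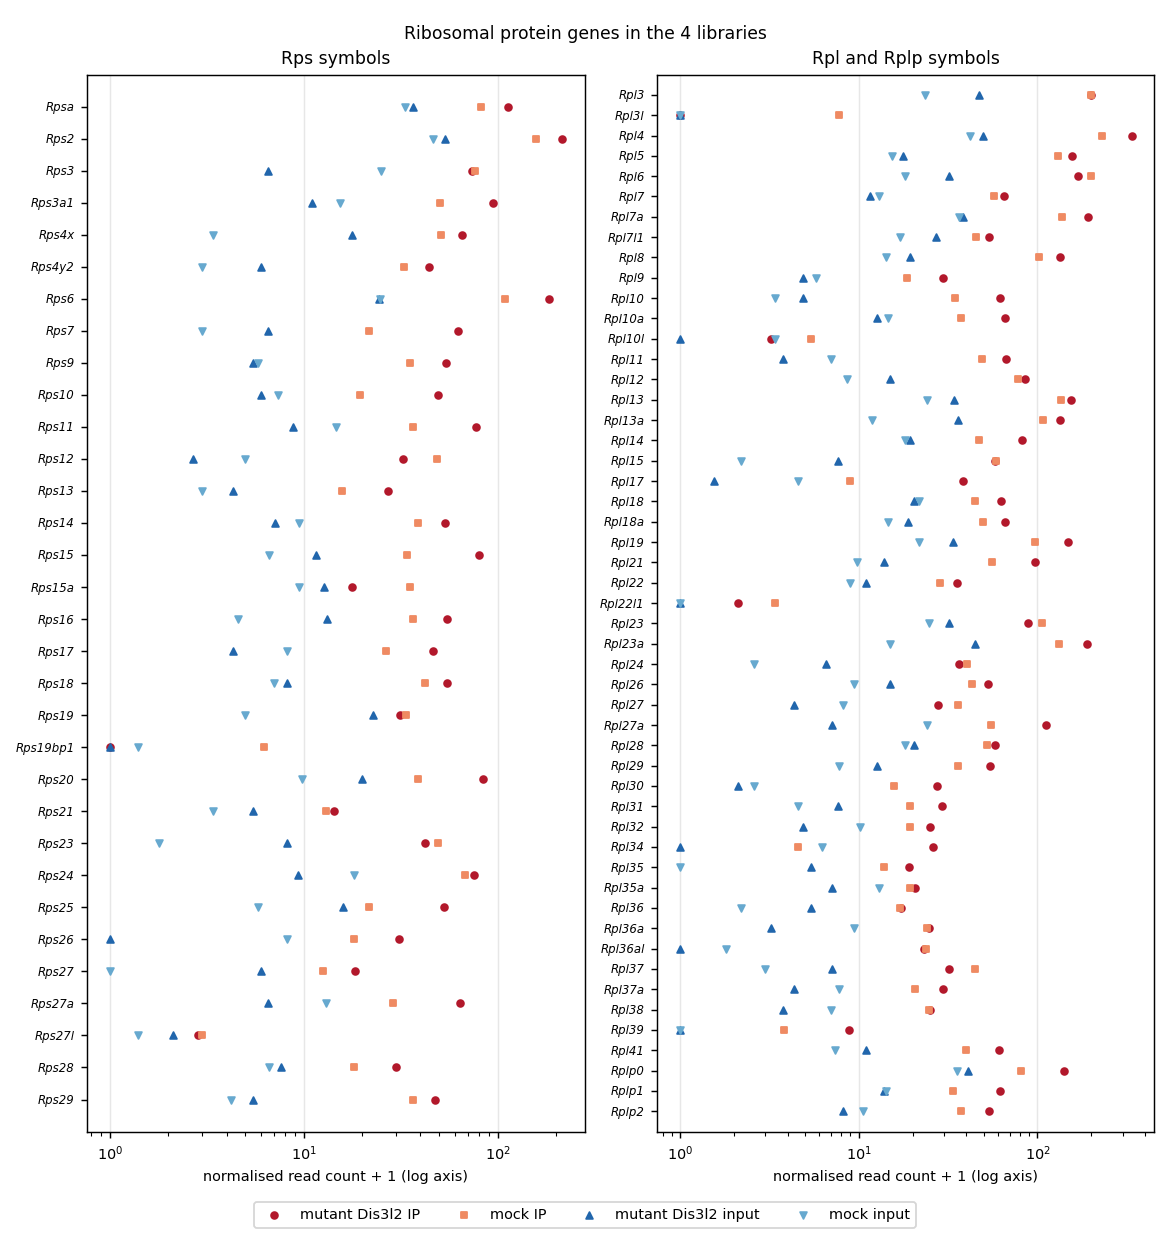
Normalised read count plus 1 (log axis) of 83 of the members in the mutant IP, the mock IP, the mutant input and the mock input, with Rps symbols on the left and Rpl and Rplp symbols on the right. The IP points lie right of the input points for nearly all genes, around medians of 53.3 and 36.4 in the IPs against 7.22 and 7.20 in the inputs.

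The 5 members with the most reads over the 4 libraries served as the best measured ones. Rpl4, whose protein lines the peptide exit tunnel, had a normalised count of 336 in the mutant IP, 228 in the mock IP, 48.3 in the mutant input and 40.8 in the mock input. Rps2, of the small subunit near the mRNA entry site, had 214, 157, 52.2 and 45.2 in the same order. Rpl3, a core protein close to the peptidyl transferase centre, had 199 and 198 in the IPs and 46.1 and 22.4 in the inputs. Rpl6 had 168 in the mutant IP, against 199 in the mock IP, with 31.1 in the mutant input and 17.2 in the mock input, the only one of the 5 that was higher in the mock IP. Rpl7a had 191 and 136 in the IPs and 37.2 and 35.6 in the inputs.

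Promoters of the family share sequence features that the choice by name did not use, and short stretches are shown for Rps2 and Rpl4, among the best measured members, and for Rpl34 and Rps15a, the highest and the lowest between the IPs of the members with at least 50 reads in them. Of the 85 members, 64 matched a RefSeq promoter window of build GRCm38.p6, from 250 bases before to 50 bases after the annotated start. The hexamer CGGAAG, the core recognised by ETS factors such as GABPA, occurred on either strand in 43 of the 64 windows (67.2%), compared with 17.2% of 27025 windows of all genes and 21.5% of 17492 windows of coding genes. Capitals mark this hexamer, or CTTCCG where it lies on the other strand, and each stretch is read 5′ to 3′ on the strand of its gene.
Rps2, chr17:24719918-24719959, plus strand: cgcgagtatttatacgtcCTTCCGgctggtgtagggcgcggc
Rpl4, chr9:64173310-64173351, plus strand: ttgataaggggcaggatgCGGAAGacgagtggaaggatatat
Rps15a, chr7:118116177-118116218, minus strand: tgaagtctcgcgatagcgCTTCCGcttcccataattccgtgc
Rpl34, chr3:130730426-130730467, minus strand: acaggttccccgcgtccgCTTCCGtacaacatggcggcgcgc
The match lies 127 bases before the annotated start in Rps2, 59 in Rpl4, 53 in Rps15a and 51 in Rpl34. The pyrimidine-rich CTTTCC occurred on either strand in 31 windows (48.4%, against 26.3% of all windows and 25.7% of coding ones), and 20 windows held both, in no case sharing bases. AANATGGC, the YY1 motif, occurred in 12 (18.8%, against 6.23% and 6.69%), and GGGCGG, the Sp1 box, in 40 (62.5%, against 35.9% and 46.3%). TATAAA occurred in 6 (9.38%, against 14.2% and 13.3%). The motifs were picked after these windows had been looked at, and neither transcription start sites nor factor binding was measured.

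The first comparison asked which ribosomal protein transcripts were recovered more with mutant Dis3l2 than by the anti-FLAG gel from mock-transfected cells. The family as a whole was slightly more abundant in the mutant IP, by 1.35-fold over the summed reads (interval 1.31 to 1.38), and so were transcripts in general. On the log2 scale with 1 added to each normalised count, the median ratio was 0.44 over 85 members and 0.38 over the 14273 transcripts with a value of at least 1 in either IP. At least 4-fold higher were 2 members, Rpl34 and Rpl17, while 10.1% of all transcripts passed this fold; at least 4-fold lower were 2, Rpl3l and Rps19bp1, beside 5.74% of all transcripts. The middle 50% of members lay between 0.03 and 0.79, compared with -0.35 and 1.15 for all transcripts, and 67 members were above 0 and 18 below. With at least 20 reads in each IP the spreads were more alike, and the medians further apart: 78 members had quartiles of 0.14 and 0.78 and a median of 0.45, beside -0.10, 0.70 and 0.31 for 6524 transcripts. In that set 1 member was 4-fold higher and 0 were lower, against 0.521% and 0.046% of all transcripts. When each library was centred on its median or scaled without Lars2 reads, the member median became 0.06 and 0.05, and with equal totals it was 0.26.

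**Figure D2:**
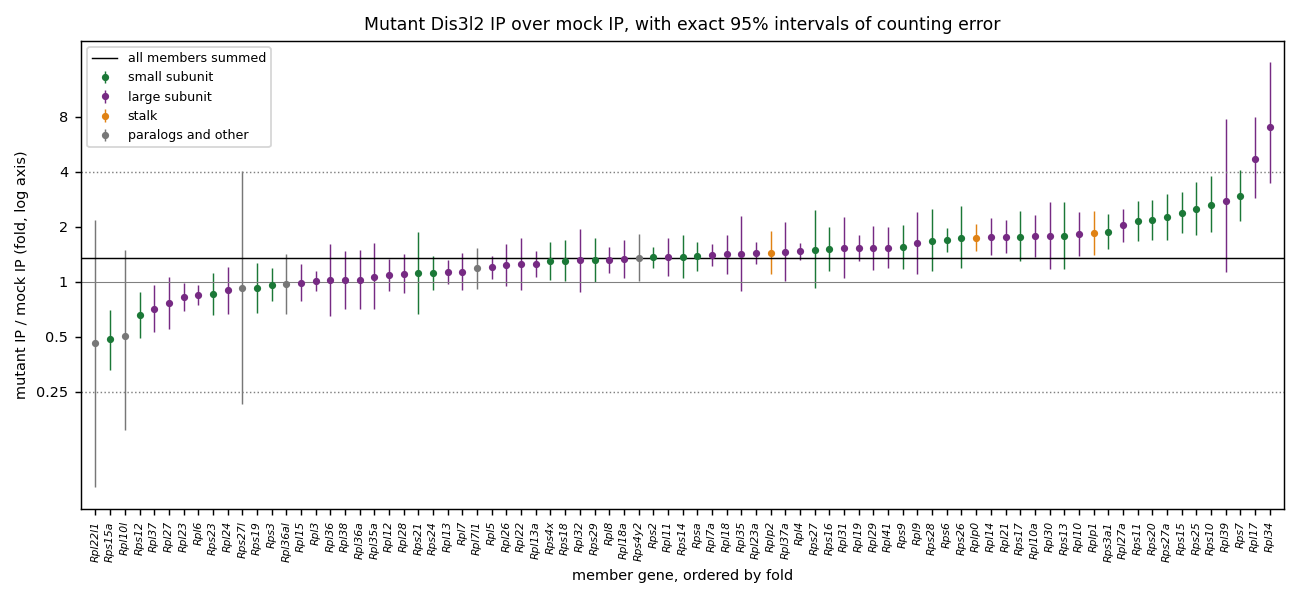
Fold of the mutant IP over the mock IP for 81 of the members with mutant IP reads, on a log axis and ordered by fold, with exact 95% intervals of counting error. The solid black line is the summed fold of 1.35, the grey line is 1 and the dotted lines are 4-fold; Rpl34 and Rpl17 stand above 4, and Rpl3l and Rps19bp1, with 0 mutant IP reads, are not drawn.

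Counting error left some spread among members. The intervals of 49 of the 85 members held the family's summed fold of 1.35, 19 lay wholly above it and 17 wholly below it. Compared with 1, the intervals of 49 members lay above, 8 lay below and 28 held it. These interval counts were not made over all transcripts, of which 9282 of 14273 had a log2 ratio above 0. They are therefore not read as particular to the family. Because replicate libraries are missing, spread beyond counting error cannot be divided into differences between cultures and differences between the IPs.

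Small subunit transcripts were 1.48-fold more abundant in the mutant IP than in the mock IP when summed (1.41 to 1.54). Of these, 25 of 31 had a log2 ratio above 0, with a median of 0.58. None was past 4-fold in either direction, beside 10.1% of all transcripts higher and 5.74% lower. The highest was Rps7, at 61.1 in the mutant IP, against 20.8 in the mock IP, a 2.94-fold difference (2.14 to 4.09), with 5.56 in the mutant input and 2.0 in the mock input. Rps10, whose protein is ubiquitylated when ribosomes stall, had 48.5 and 18.4 in the IPs (2.64-fold, 1.87 to 3.77), and 5.0 and 6.40 in the inputs. Rps25, known for its part in translation from viral internal entry sites, had 51.9 and 20.8 in the IPs (2.49-fold, 1.8 to 3.50), and 15.0 and 4.80 in the inputs. For all 3 the mutant IP held the higher count, by more than the family's summed fold.

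Other small subunit members had lower counts in the mutant IP. Rps15a had 16.7 in the mutant IP, against 34.4 in the mock IP, or 0.484 times the mock value (0.330 to 0.703), with 11.7 in the mutant input and 8.40 in the mock input. The 2 pseudogene rows of Rps15a in the table lay on the same side, with 10 reads in the mutant IP, against 39 in the mock IP for Rps15a-ps4, and 16 and 51 for Rps15a-ps6. Reads shared between such near-identical copies could have been counted at one or several of them, and which rule the authors applied is not stated in the labels. Rps12 had 31.5 and 47.6 in the IPs (0.661 times, 0.495 to 0.881), and 1.67 and 4.0 in the inputs. The interval lay below 1 for both Rps15a and Rps12.

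Large subunit transcripts, stalk included, were 1.30-fold more abundant in the mutant IP when summed (1.26 to 1.34), with 40 of 46 above 0 and a median log2 ratio of 0.46. The intervals of the 2 subunits' summed folds did not overlap, although these intervals leave out any variation between libraries. Rpl34 had 68 reads in the mutant IP, 9 in the mock IP, 0 in the mutant input and 13 in the mock input, which are normalised counts of 25.2, 3.6, 0 and 5.2. Its fold between the IPs was 7.0 (3.48 to 16). The pseudogene row Rpl34-ps1 had almost the same reads, 59, 9, 0 and 13, so that the signal cannot be assigned to one of the copies. Rpl17, whose protein sits at the mouth of the exit tunnel, had 101 reads in the mutant IP, 20 in the mock IP, 1 in the mutant input and 9 in the mock input, or 37.4, 8.0, 0.56 and 3.6 after normalisation. Its fold between the IPs was 4.68 (2.87 to 7.98), and both IP counts exceeded the input counts.

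At the low end of the large subunit, Rpl37 had 31.1 in the mutant IP, against 43.6 in the mock IP (0.714 times, 0.530 to 0.957), with 6.11 in the mutant input and 2.0 in the mock input. Rpl27 had 26.7 and 34.8 in the IPs (0.766 times, 0.553 to 1.06), and 3.33 and 7.20 in the inputs, so counting error alone covers its difference between the IPs. Rpl6, described above, was at 0.844 times its mock IP count (0.742 to 0.961). Rpl23, which can bind the p53 regulator Mdm2, was at 87.0 in the mutant IP, against 106 in the mock IP (0.824 times, 0.688 to 0.986). Rpl37, Rpl6 and Rpl23 were the large subunit genes whose interval lay below 1.

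The stalk proteins Rplp0, Rplp1 and Rplp2 form the arm of the large subunit that recruits translation factors. All 3 had higher counts in the mutant IP, with a summed fold of 1.69 (1.49 to 1.93). Rplp0, the anchor of the stalk, had 140 in the mutant IP, 80.0 in the mock IP, 40.0 in the mutant input and 34.4 in the mock input. Rplp1 had 60.4, 32.8, 12.8 and 13.2, and Rplp2 had 52.6, 36.4, 7.22 and 9.60 in the same order. The inputs of the stalk genes differed little, with a summed fold of 1.05 between them (0.809 to 1.36).

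Some ribosomal proteins made as fusions or filed under other names were not members and were read beside them. Rps27a, itself a member that encodes ubiquitin fused to a small subunit protein, had 63.0 in the mutant IP, against 28.0 in the mock IP (2.25-fold, 1.69 to 3.01), and 5.56 and 12 in the inputs. Fau, a fusion of a ubiquitin-like protein with a small subunit protein, stood at 57.8 and 47.2 in the IPs. Gnb2l1 (Rack1), a scaffold on the small subunit, was at 196 in the mutant IP, against 131 in the mock IP.

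Paralogs and the member that is no ribosomal protein were thinly counted and had a median log2 ratio of -0.38 over 8 rows, with a summed fold of 1.03 (0.877 to 1.21). Rpl3l, the striated muscle paralog of Rpl3, had 0 reads in the mutant IP, against 17 in the mock IP, at least 6.12-fold lower in the mutant IP with 3 reads as the floor (interval up to 0.224 times), and 0 in both inputs. Such floors leave out the counting error of the other library, which the interval's limit holds. Rpl3 itself differed by 1.01-fold between the IPs (0.889 to 1.14). Rps19bp1 had 0 reads in the mutant IP, against 13 in the mock IP, at least 4.68-fold lower in the mutant IP by the same floor (interval up to 0.304 times, short of 4-fold), and 0 and 1 in the inputs. Both genes past the 4-fold line on the low side rested on fewer than 20 reads.

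Among the other paralogs, Rpl10l, a testis paralog, had 6 reads in the mutant IP, 11 in the mock IP, 0 in the mutant input and 6 in the mock input, while its parent Rpl10 had 165, 84, 7 and 6. Rpl22l1 had 3, 6, 0 and 0 reads, beside 93, 69, 18 and 20 for Rpl22. Rps27l had 5, 5, 2 and 1, beside 47, 29, 9 and 0 for Rps27. These 3 paralogs were too thinly counted for their ratios to be read. Rpl7l1 was well counted, at 142, 111, 47 and 40 reads, beside 173, 141, 19 and 30 for Rpl7, with folds between the IPs of 1.18 (0.918 to 1.53) and 1.14 (0.904 to 1.43). Rpl36al had 60, 57, 0 and 2 reads, and its near-identical parent Rpl36a had 64, 58, 4 and 21. Their folds between the IPs were 0.975 (0.667 to 1.43) and 1.02 (0.705 to 1.48). Rps4y2 had 117, 80, 9 and 5 reads and Rps4x, the X-linked parent, had 175, 125, 30 and 6, with folds between the IPs of 1.35 and 1.30.

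The comparisons of each IP with its own input asked how far ribosomal protein transcripts stood above the RNA the IP started from. Normalised counts were higher in the IP than in the input by 5.44-fold in the mutant cells (5.19 to 5.71) and by 4.94-fold in the mock cells (4.72 to 5.18), over the summed reads. In the mutant cells 58 of 83 measured members passed 4-fold upward in the IP and 0 passed it downward, beside 61.1% and 2.32% of all transcripts. In the mock cells 46 of 85 passed it upward and 0 downward, beside 60.6% and 1.92%. Median log2 ratios were 2.46 for members and 2.44 for all transcripts in the mutant cells, and 2.13 for members and 2.32 for all transcripts in the mock cells. The IP without a FLAG protein therefore stood above its input by nearly as much as the IP with one. The ratios of IP to input depended on the scaling: with every library centred on its median, 4 members in the mutant cells, beside 9.55% of all transcripts, and 2 in the mock cells, beside 8.61%, were 4-fold higher, and the medians were 0.13 and -0.11. Restricting to at least 20 reads in each library left 20 of 34 members 4-fold higher in the mutant cells, beside 39.7% of 1267 transcripts, and 0 lower, beside 1.89%. It left 16 of 40 in the mock cells, beside 44% of 1243, and 0 lower, beside 1.45%.

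**Figure D3:**
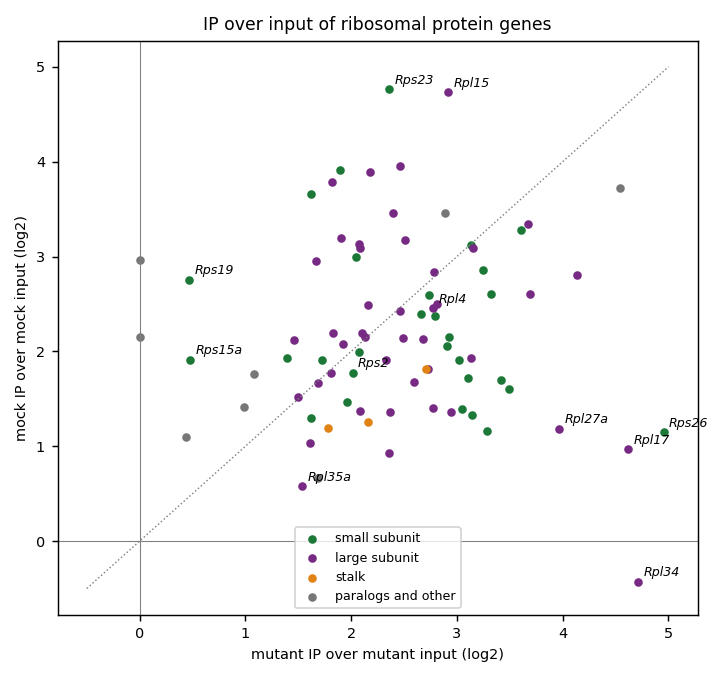
Each of the 83 points is 1 member, with the log2 ratio of mutant IP over mutant input on the horizontal axis and of mock IP over mock input on the vertical axis, coloured by subunit, and the dotted line marks equal ratios. Rpl34 lies alone below 0 on the vertical axis (-0.43) while at 4.71 on the horizontal one, and Rps23 and Rpl15 lie far above the dotted line.

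By subunit, the summed fold of IP over input in the mutant cells was 5.82 for the small subunit (5.35 to 6.34), 5.33 for the large subunit (5.02 to 5.66) and 4.21 for the stalk (3.43 to 5.21). In the mock cells it was 4.52 for the small subunit (4.17 to 4.90), 5.15 for the large subunit (4.86 to 5.46) and 2.61 for the stalk (2.15 to 3.19). The stalk had the lowest summed fold of these groups in both conditions. In the mutant cells its interval overlapped that of the large subunit, and Rplp0 gave 377 of its 682 IP reads. Rplp0 was 3.49-fold, Rplp1 4.72-fold and Rplp2 7.28-fold above the mutant input, the last on 13 input reads, beside 5.44-fold for the family. In the mock cells they stood at 2.33-fold, 2.48-fold and 3.79-fold, beside 4.94-fold. A low ratio common to the stalk genes was thus not shown in the mutant cells. The single members at the high end in the mutant cells mostly had few input reads, which a choice by this ratio favours. Rps26, which sits at the mRNA exit channel, had 81 IP reads and 0 input reads in the mutant cells, at least 18-fold higher in the IP by the floor (interval from 14.3), while the mock cells gave 43 and 18, a 2.39-fold difference (1.35 to 4.40). Rpl11, which with Rpl5 and 5S RNA can bind Mdm2, had 177 IP reads and 5 input reads in the mutant cells (23.6-fold, 9.92 to 73.6), and 120 and 15 in the mock cells (8.0-fold, 4.66 to 14.7). Rpl34 was at least 15.1-fold above its input in the mutant cells by the floor (interval from 12), against 0.692 times its input in the mock cells (0.261 to 1.75). Rpl36al was at least 13.3-fold above the mutant input by the floor (interval from 10.5), and Rpl17 was 67.3-fold above it on a single input read (11.8 to 2686).

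The 5 members that stood highest over input in the mock cells had 2 to 6 mock input reads. Rps23, at the decoding centre, had 120 IP reads and 2 input reads in the mock cells (60-fold, 16.3 to 501), and 111 and 13 in the mutant cells (5.69-fold, 3.20 to 11.0). Rpl15 had 144 and 3 in the mock cells (48.0-fold, 16.1 to 235) and 154 and 12 in the mutant cells (8.56-fold, 4.76 to 16.9). Rpl24, mutated in the mouse strain belly spot and tail, had 98 and 4 in the mock cells (24.5-fold, 9.27 to 91.7) and 95 and 10 in the mutant cells (6.33-fold, 3.30 to 13.6). Rpl37 (109 against 5 reads) and Rps4x (125 against 6) followed with 21.8-fold and 20.8-fold in the mock cells. In these 5 genes the mutant IP stood at 0.714 to 1.30 times the mock IP, and the mutant input at 3.06 to 9.03 times the mock input. The 5 genes were picked by a ratio that divides by the mock input. A low mock input was thus favoured by the choice, and the range between the inputs is no separate result.

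Members with the least difference from input were better counted. A choice by a low ratio favours a high input count, so the contrast of these genes with the other condition is no separate result. In the mutant cells Rps19, mutated in human Diamond-Blackfan anaemia, had 82 reads in the IP and 39 in the input (1.40-fold, 0.946 to 2.11), and in the mock cells 82 and 10 (8.20-fold, 4.24 to 17.7). Rps15a had 45 and 21 in the mutant cells (1.43-fold, 0.834 to 2.52) and 86 and 21 in the mock cells (4.10-fold, 2.52 to 6.95). Rpl7l1 had 142 and 47 in the mutant cells (2.01-fold, 1.44 to 2.86) and Rpl23 had 235 and 56 (2.80-fold, 2.08 to 3.81). In the mock cells Rpl35a had 46 and 30 (1.53-fold, 0.947 to 2.52), Rpl32 46 and 23 (2.0-fold, 1.19 to 3.46) and Rpl18 109 and 52 (2.10-fold, 1.49 to 2.98). Rps27a was 2.33-fold above input there (1.5 to 3.71), on 70 and 30 reads.

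The comparison of the inputs shows transcript levels before the IP. The family was close to even between them, with a summed fold of 1.22 for the mutant input over the mock input (1.15 to 1.30) and a median log2 ratio of 0.24 over 80 measured members, beside 0.51 over 9367 transcripts. At least 2-fold higher in the mutant input were 18 members, beside 37% of all transcripts, and at least 2-fold lower were 8, beside 21.8%. The direction of the median depended on scaling: it was -0.06 with libraries centred on their medians and -0.30 with equal totals. With at least 20 reads in each input, 4 of 27 members were 2-fold higher and 0 lower, beside 15.2% and 0.0981% of 1019 transcripts. The intervals of 58 of 82 members held 1, a count that was not made for all transcripts. In bulk RNA, a change in cell number and a change in RNA per cell cannot be told apart.

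The 4 members with at least 20 reads in each input that were higher in the mutant input included Rpl13a, known in human cells for a role in silencing inflammatory mRNAs, at 35.0 in the mutant input and 10.8 in the mock input (3.24-fold, 2.03 to 5.29). Rpl23a, at the exit tunnel, had 43.9 and 14 in the inputs (3.13-fold, 2.08 to 4.81). Rps20 had 18.9 and 8.80 (2.15-fold, 1.22 to 3.85), and Rpl3 had 46.1 and 22.4 (2.06-fold, 1.45 to 2.94). In the IPs these genes did not separate in one way, at 1.25-fold for Rpl13a, 1.44-fold for Rpl23a, 2.17-fold for Rps20 and 1.01-fold for Rpl3. Another 14 members passed the 2-fold line on fewer reads, among them Rps27, Rpl35, Rps4x, Rps23, Rps19, Rpl15, Rps16, Rps25, Rpl24, Rpl36, Rpl37, Rps7 and Rps4y2. Of these, Rps4x had 16.7 in the mutant input and 2.40 in the mock input (6.94-fold, 2.84 to 20.4), and Rps19 had 21.7 and 4.0 (5.42-fold, 2.66 to 12.2). The intervals of Rpl36 (from 0.889), Rpl37 (from 0.979), Rps7 (from 0.865) and Rps4y2 (from 0.752) held 1. Rps27 and Rpl35, with 0 mock input reads, were at least 4.17-fold and 3.70-fold higher by the floor, with intervals from 2.74 and 2.37.

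Lower in the mutant input were Rps26, Rpl34, Rps3, Rpl27a, Rpl10l, Rpl17, Rpl36a and Rpl32. Of these, the intervals of Rpl10l (up to 1.18 times), Rpl17 (up to 1.11) and Rpl32 (up to 1.02) held 1. Rps3, which lines the mRNA entry channel, had 10 reads in the mutant input and 60 in the mock input, or 5.56 and 24.0 after normalisation (0.231 times, 0.106 to 0.456). Its IP counts were 72.6 in the mutant IP, against 75.2 in the mock IP, or 0.965 times the mock value (0.786 to 1.19). Rpl27a had 11 and 58 input reads (0.263 times, 0.125 to 0.507), yet 110 in the mutant IP, against 54.0 in the mock IP (2.04-fold, 1.66 to 2.52). Rps26 was at least 4.32-fold lower and Rpl34 at least 3.12-fold lower by the floor, with 0 mutant input reads each and intervals up to 0.316 and 0.456 times. Short of the 2-fold line, Rps24 stood at 0.484 times its mock input count (0.25 to 0.890) and Rps3a1 at 0.694 (0.371 to 1.26).

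The specific IP enrichment, the log2 ratio of mutant IP over its input minus that of mock IP over its input, sets both contrasts against each other. Its median was 0.32 over 85 members and 0.13 over 15060 transcripts. At least 4-fold higher were 5 members, beside 13.8% of all transcripts, and at least 4-fold lower were 7, beside 10.6%. The higher ones were Rpl34 at 5.14, Rps26 at 3.80, Rpl17 at 3.65, Rpl27a at 2.78 and Rps27a at 2.13, and each of them had at most 11 reads in the mutant input. The lower ones included Rpl3l at -2.96, Rps23 at -2.41, Rps19 at -2.29, Rps19bp1 at -2.15, Rps27 at -2.04 and Rps4x at -2.01, and each of these had at most 10 reads in the mock input. Of the 27 members with at least 20 reads in all 4 libraries, 0 were past 4-fold either way, with a median of 0.06, beside 0.466% higher and 1.75% lower of 859 transcripts with a median of -0.08. A large ratio also lowers one of the input counts, so this read minimum removes part of such members by construction.

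Other mRNAs of the translation machinery were read beside the family from lists chosen with earlier results known. The 16 other mRNAs with a TOP tract encode elongation and initiation factors and related proteins. They had a summed fold of 1.21 between the IPs (1.17 to 1.24) and a median log2 ratio of 0.27. At least 4-fold higher was 1 of the 16, beside 10.1% of all transcripts, and 0 were 4-fold lower, beside 5.74%. The higher one was Eif3e, with 13 reads in the mutant IP, against 0 in the mock IP. Eef2, the translocase of elongation, had 1104 in the mutant IP, 912 in the mock IP, 88.3 in the mutant input and 78.0 in the mock input. Over input, their summed reads stood higher than those of the ribosomal protein genes, at 10.5-fold in the mutant cells (9.79 to 11.3) and 10.1-fold in the mock cells (9.41 to 10.8). Past 4-fold were 10 of 16 in the mutant cells, beside 61.1% of all transcripts, and 14 of 15 in the mock cells, beside 60.6%. Eif4b, a translation initiation factor, was 21.7-fold above its input in the mutant cells and 12.9-fold in the mock cells. The summed folds of the lists stood in this order in both conditions, with and without the FLAG protein.

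Ribosome assembly genes, of which 23 of 24 listed were in the table, gave a summed fold of 1.26 between the IPs (1.20 to 1.32). None was past 4-fold, beside 10.1% of all transcripts higher and 5.74% lower. Over input they stood at 5.6-fold in the mutant cells (5.08 to 6.19, 17 of 23 past 4-fold, beside 61.1%) and 5.83-fold in the mock cells (5.29 to 6.44, 16 of 23, beside 60.6%). Between the inputs 6 of 21 were 2-fold higher and 4 lower, beside 37% and 21.8% of all transcripts. Their median specific enrichment was -0.53, with 3 of 23 higher and 2 lower, beside 13.8% and 10.6%. The ribosomal protein genes, at 5.44-fold and 4.94-fold over input, lay nearer to this list than to the other TOP mRNAs.

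**Figure D4:**
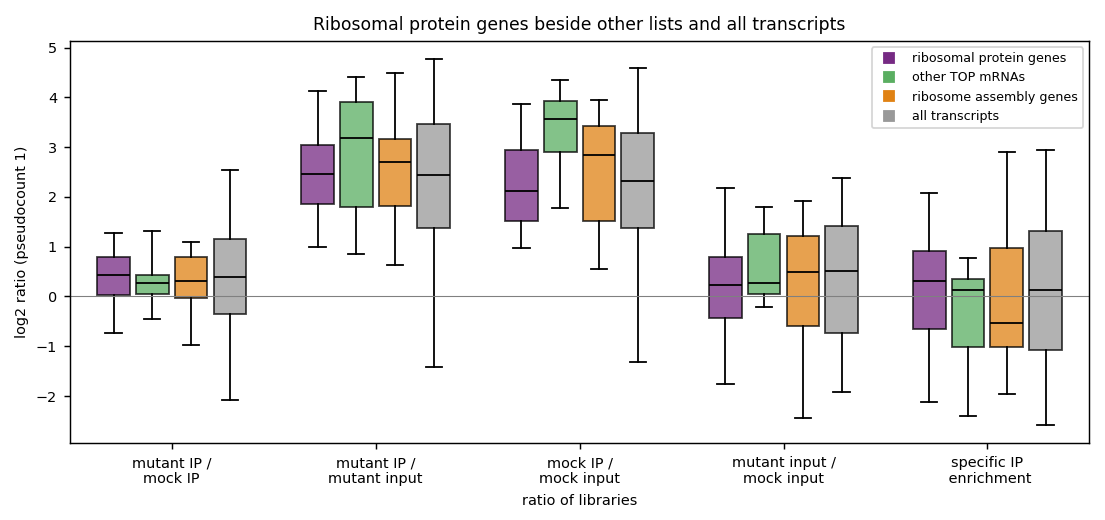
Log2 ratios (1 added to each normalised count) for 5 ratios of the libraries, in ribosomal protein genes, other TOP mRNAs, ribosome assembly genes and all transcripts, with boxes at the quartiles, lines at the medians and whiskers at the 5th and 95th percentiles. Medians for ribosomal protein genes are 0.44, 2.46, 2.13, 0.24 and 0.32 from left to right, beside 0.38, 2.44, 2.32, 0.51 and 0.13 for all transcripts.

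Introns of 24 listed members hold snoRNAs, and the noncoding table allowed the mature snoRNA and the mRNA of the same gene to be set side by side. The 24 host genes had a summed fold between the IPs of 1.33 (1.29 to 1.38) and a median log2 ratio of 0.47, against 1.38 (1.33 to 1.43) and 0.49 for the 53 subunit genes outside that list. Of 28 listed snoRNAs, 14 had a row, and each lay inside a member gene by its RefSeq position. In contrast to their hosts, the 7 H/ACA box snoRNAs drawn in the plot of snoRNAs and hosts were far below input in both IPs. Among 11 measured in the mutant cells 8 were at least 4-fold lower in the IP and 1 higher, beside 9.18% and 26.2% of the 4151 noncoding rows, and in the mock cells 7 of 9 were lower and 0 higher, beside 9.67% and 23.9% of 3766.

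Snora70, inside Rpl10, had 0 reads in both IPs, 535 in the mutant input and 612 in the mock input, which puts the IP at least 268-fold below the input in the mutant cells and at least 204-fold below it in the mock cells by the floor (intervals up to 0.00461 and 0.00605 times). The Rpl10 mRNA was 15.7-fold and 14-fold higher in the same IPs. Snora64, inside Rps2, had 12 reads in the mutant IP, 13 in the mock IP, 6389 in the mutant input and 6877 in the mock input, whereas Rps2 mRNA was 4.09-fold and 3.48-fold higher in the IPs. Snora21 of Rpl23 had 7, 1, 962 and 1514 reads, and Snora7a of Rpl32 had 3, 0, 658 and 773. These H/ACA box snoRNAs guide pseudouridylation, and the pattern was shared by Snora65 of Rpl12 (1, 1, 472 and 408 reads), Snora52 of Rplp2 (11, 0, 214 and 222) and Snora3 of Rpl27a (4, 0, 142 and 66). A smaller difference was found for the C/D box snoRNA Snord15a of Rps3, which guides methylation and had 22, 23, 72 and 39 reads, or 0.204 times its input in the mutant cells (0.120 to 0.332) and 0.590 times in the mock cells (0.336 to 1.01). A second copy in the same gene, Snord15b, had 10, 18, 6 and 4 reads. The other rows held at most 9 reads in any library, as for Snord43 of Rpl3 with 9 in the mutant IP and 0 elsewhere. In these pairs the host mRNA was above input and its abundant snoRNA below it, with and without the FLAG protein. Standing above input was usual for mRNAs, with median log2 ratios over all transcripts of 2.44 in the mutant cells and 2.32 in the mock cells. It also depended on the scaling of the libraries. Input and IP RNA also differed in the RiboMinus step, so recovery and preparation cannot be told apart.

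**Figure D5:**
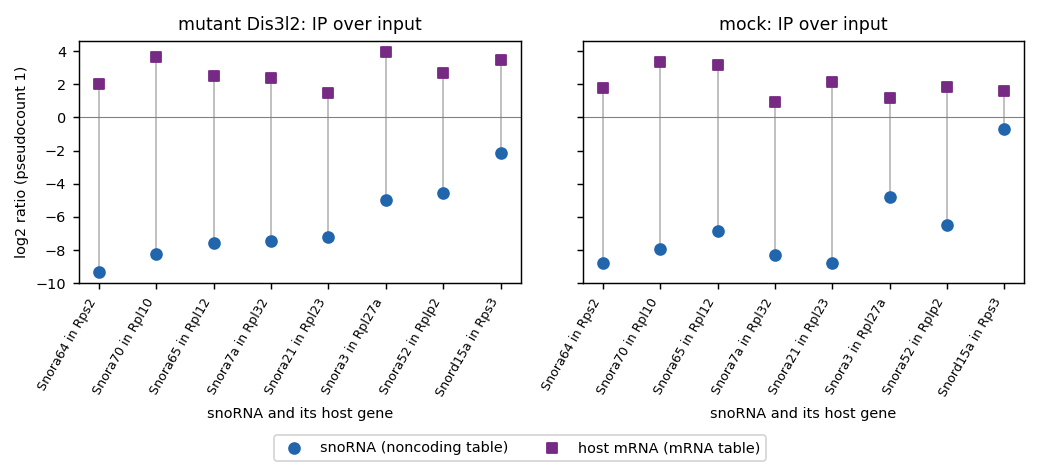
Log2 ratio of IP over input for 8 snoRNAs with at least 50 input reads (circles) and for the mRNA of the gene that hosts each (squares), in the mutant cells on the left and the mock cells on the right, with a grey line joining each pair. All 8 snoRNAs lie below 0 and all host mRNAs above 0 in both panels, the widest gap being that of Snora70 and Rpl10 in the mutant cells at -8.22 and 3.67.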

How the data were processed

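Per the submitters' processing notes, Bowtie and build mm9 were used. Not given in the sources used here are the aligner's version, how reads were counted, whether strand was used and how reads that align to several copies were treated. The deposited unit is a signal: the authors divided whole reads by 1 factor per library, and 100% of the values in both tables came out as whole reads (tolerance 0.0051 in the deposited value). The meaning of these factors is not stated. There were 16470 rows of mRNAs and 6311 rows of noncoding RNAs.

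With 1 library per group there was no test. Ratios were log2 of the value plus a pseudocount of 1, over rows with a value of at least 1 in a library of the ratio, and a member was counted past 4-fold (2-fold between inputs). Folds of reads carry exact conditional binomial 95% intervals and shares have exact Clopper-Pearson intervals. A fold against 0 reads used a floor of 3 reads in that library. Named were Dis3l2, members past these folds, the 5 highest and 5 lowest members with at least 50 reads for each ratio, the 5 members with the most reads, paralogs with their parents, and the lists given; other genes named, including the pseudogene rows, were chosen after their values were seen. Members and lists were chosen with earlier results of these data known. All 85 members matched RefSeq by accession, 84 under the same symbol; promoter sequences are RefSeq, build GRCm38.p6, matched by symbol. RefSeq names 321 ribosomal protein pseudogenes, and 63 members have one. Alternatives covered the pseudocount, the scaling, the minimum value and the choice of rows. One choice of rows, the sum of all transcripts of a symbol, left every member as it was. Scripts ran in Python 3.11.15 with pandas 2.3.3, numpy 2.4.6, scipy 1.17.1 and matplotlib 3.10.9 and were tested on simulated data. A few genes that this rule names are not reported here or drawn in the figures.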

Additional observations from a re-analysis of the deposited data

Results flagged for a closer look

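With the deposited factors, Rpl34 was the only member whose log2 IP-to-input ratio lay on opposite sides of 0 in the 2 conditions. With these factors 0 is no midpoint, since all transcripts had medians of 2.44 in the mutant cells and 2.32 in the mock cells. Centring each library on its median brought the member medians to 0.13 and -0.11, so which members lie on opposite sides of 0 depends on the scaling. Its log2 ratio was 4.71 for mutant IP over mutant input, on 68 reads and 0 reads, and -0.43 for mock IP over mock input, on 9 and 13 reads. The difference between the conditions was not tested, since each library is single. The mock ratio's interval held 1 (0.692 times, 0.261 to 1.75), and Rpl34-ps1 showed the same pattern with 59, 9, 0 and 13 reads in the mutant IP, mock IP, mutant input and mock input.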

How the results depend on the processing

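No paired analysis was possible because each group held 1 library. For the 5 ratios and the shares, 166 alternative values were computed. Of these, 102 stayed near the reported value, 59 moved and 5 medians changed sign. Medians were judged by the interval of the family's summed ratio and shares by their own intervals. Counts were judged by their fold from the reported count, and any change to or from 0 was taken as moved. The 102 include the summing of all transcripts of a symbol, which could not change members with 1 transcript each. The median of mock IP over mock input became -0.11 when centred and -0.32 with equal totals; that of the inputs became -0.058 when centred, -0.30 with equal totals and -0.32 with equal totals without Lars2. Between the IPs, 1 member was 4-fold higher when centred, with equal totals, without Lars2 and with at least 20 reads in each library, and 0 with a pseudocount of 5; 0 were lower with a pseudocount of 5, without paralogs and with 20 reads; the median was 0.056 centred, 0.26 with equal totals, 0.054 without Lars2 and 0.48 without paralogs. For the mutant IP over input the count past 4-fold was 4 centred, 6 with equal totals, 10 without Lars2 and 20 with 20 reads, and the median 0.13, 0.30, 0.74 and 2.07 in that order, or 1.99 with a pseudocount of 5. For the mock IP over input the count was 2 centred, 5, 9 and 16, or 27 with a pseudocount of 5; 1 member was lower centred, with equal totals and without Lars2; the median was 0.27 without Lars2, 1.86 with 20 reads, 1.69 with a pseudocount of 5 and 2.20 with 0.5. Between inputs, 9 were 2-fold higher with a pseudocount of 5 and 4 with 20 reads; lower were 13 with a pseudocount of 0.5, 4 with 5, 18 centred, 22 with equal totals and without Lars2, and 0 with 20 reads; the median with 20 reads was 0.36. For the specific enrichment, 3 were higher with a pseudocount of 5, 11 with equal totals, 8 without Lars2 and 0 with 20 reads; 0 were lower with a pseudocount of 5 and with 20 reads; the median was 0.53 with equal totals and 0.059 with 20 reads. The share without Lars2 was 1.41%, 1.38%, 0.924% and 1.13% in the mutant IP, mock IP, mutant input and mock input, and among coding rows without Lars2 1.59%, 1.53%, 1.59% and 1.90%; without paralogs the mock IP's was 0.559%. The cause of these moves was not tested. The minimum of 20 reads and the coding share were added after seeing the data. The depth of the inputs, 307324 and 291175 reads in the mRNA table, limits every ratio that uses an input.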

Other observations

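The 6 pseudogene rows of member genes in the mRNA table together held 312 reads in the mutant IP, 351 in the mock IP, 62 in the mutant input and 89 in the mock input. Rps19-ps3 had 33 reads in the mutant IP, against 78 in the mock IP (0.392 times, 0.253 to 0.596), while its parent Rps19 had 82 in each (0.926 times, 0.673 to 1.27). Rpl31-ps12 had 25 and 50 (0.463 times, 0.274 to 0.763), while Rpl31, a large subunit protein at the exit tunnel, had 76 and 46 (1.53-fold, 1.05 to 2.26). In these 2 pairs the copy and the parent had different ratios between the IPs, and their intervals did not overlap, whereas Rpl34 and Rpl34-ps1 were nearly equal in all 4 libraries. Rplp2-ps1 had 169, 124, 29 and 49 reads in the mutant IP, mock IP, mutant input and mock input, above the 142, 91, 13 and 24 of Rplp2 itself.

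Rpl39, one of the shortest ribosomal proteins, had 21 reads in the mutant IP, against 7 in the mock IP (2.78-fold, 1.14 to 7.74) and 0 in both inputs, the only subunit gene without a read in either input.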
